A study of Mus musculus with 6 samples.

Results

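A set of 10 genes of the transforming growth factor beta (TGF-beta) pathway were followed by their symbols in microglia with the gene of the microRNA miR-137 targeted for deletion. They are the ligand Tgfb1, the ligand-anchoring protein Nrros, the receptors Tgfbr1 and Tgfbr2, the signal transducers Smad2, Smad3 and Smad4, the inhibitory Smad7 and the repressors Ski and Skil. All 10 of 10 symbols were found among the 17459 rows of the count table, and all 10 were among the 13490 genes tested after a filter on low counts. RNA sequencing covered 6 libraries of brain microglia from male C57BL/6J mice aged 8 weeks, 3 labelled cKO and 3 labelled cWT. The cKO mice were Mir137loxP/loxP;Tmem119-CreERT2 and the cWT mice Mir137+/+;Tmem119-CreERT2, so both genotypes carried the Cre and both are described as receiving tamoxifen for 7 days at 7 to 8 weeks of age. The Cre is driven by Tmem119, a gene of microglia, so cells that do not express it keep Mir137. The labels name 4 mice without saying how they fall into the libraries, so a p-value here reflects how far the libraries of a genotype lie apart, a spread that may be technical. The level of Mir137 itself was not analysed here, so the targeted gene gives no check of the labels.

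TGF-beta is made as a latent complex held by an anchoring protein on the cell surface or in the matrix, and in microglia that anchor is the protein encoded by Nrros. Released ligand binds the type II receptor (Tgfbr2), which activates the type I receptor (Tgfbr1). The type I receptor phosphorylates Smad2 and Smad3, which enter the nucleus with Smad4. Ski and Skil repress Smad-bound genes, and Smad7 blocks the active receptor as part of a feedback loop. Microglia of the adult brain need TGF-beta signalling to keep their characteristic gene programme.

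The targeted gene gives rise to both arms of miR-137, which are shown because pairing of the seed (bases 2 to 8, in capitals) with a transcript is the usual mode of microRNA action. The sequences are from RefSeq (GRCm38.p6, plus strand), with miR-137-5p at chr3:118433865-118433887 and miR-137-3p at chr3:118433901-118433923. Among the longest annotated 3' UTRs of the 10 members, only that of Ski held the letters AGCAATA that pair with the seed of miR-137-3p. That match begins at base 2500 of a UTR of 3266 bases, is followed by an A, and lies within the stretch of chr4:155154829-155154851 (GRCm38, minus strand) printed below with the match in capitals. The same letters were present in the UTR of 1300 of 12611 tested genes (10.3%), and the letters that pair with the seed of miR-137-5p were in none of the 10 members and in 1.12% of tested genes. The UTRs of the tested genes have a median of 1192 bases, shorter than that of Ski.

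mmu-miR-137-5p: aCGGGUAUucuuggguggauaau
mmu-miR-137-3p: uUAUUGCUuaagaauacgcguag
Ski 3' UTR: aaaaaccaacAGCAATAagtcat

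The libraries held 16503817 to 17482042 estimated counts in cWT and 12068698 to 15212806 in cKO. Markers of microglia were present in all 6 libraries, with a summed level of 35336 to 37565 scaled counts per 1000000 (CPM) in cWT and 32878 to 37091 in cKO, and 3 of these 10 were called higher and 5 lower. Of 5 monocyte and neutrophil markers in the table, 4 rose and 1 fell, and their sum went from 2800.4 to 3449 CPM in cWT to 9771 to 14252 in cKO. S100a9 contributed 1361 to 1683 CPM to that sum in cWT and 5017 to 7559.8 in cKO, and S100a8 contributed 992 to 1247 and 3769 to 5723. The marker that fell was Ccr2, at 44.3 to 57.6 CPM in cWT and 10.9 to 23.8 in cKO. None of the marker sums takes account of the trend of fold change with transcript length given below. Markers of border macrophages summed to 749 to 952 CPM in cWT and 655 to 826 in cKO, with 3 of 6 called higher and 1 lower. Those of endothelial cells summed to 1082 to 1309.8 and 1537 to 1826, with 2 of 6 higher and 3 lower, and those of neurons to 5.16 to 8.09 and 7.3 to 11.2. Among the endothelial markers, Ly6c1 went from 186 to 234 CPM in cWT to 774 to 894 in cKO, while Flt1 went from 239 to 289 CPM to 52.6 to 65.5. No marker found in the table was at 0 in all 6 libraries, and the part of these cells in the results below was not tested. Fewer cells of a type and less RNA per cell cannot be told apart in such bulk samples.

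Transcripts of the ligand, both receptors, all 4 Smads and both repressors were lower in cKO, and Nrros was the exception. Smad3 stood at 21.7% of its cWT level, Ski at 27.1%, Skil at 36.5%, Tgfb1 at 39.3%, Tgfbr2 at 39.6%, Smad7 at 40.5%, Smad4 at 62.5%, Tgfbr1 at 64.0% and Smad2 at 76.2%. By edgeR's quasi-likelihood test with adjustment over all genes, 9 of 10 members were called lower (adjusted p under 0.05) and 0 higher, while 36.5% of all genes tested were called lower and 35.6% higher (72.1% in either direction). At an unadjusted p under 0.05 by edgeR the count of members higher was also 0. At an adjusted p under 0.05 it was 0 with DESeq2 and with limma-voom, where 4794 and 4823 of all genes were called higher. The same 9 members did not overlap between the genotypes, where 37.9% of genes tested were lower without overlap. The median log2 fold change of the members was -1.32, against -0.02 for all genes tested. Fold changes across the genome went with transcript length, and for 4 members the direction or the call depends on how length is treated, as given for each below. Among 10 groups of genes by length, the share called lower ran from 2.69% in the shortest to 83.2% in the longest. The members are long, with a median of 4684 bases against 3001 for all genes. Of genes with 4145 to 4925 bases, 66.2% were called lower. When length and GC content of the transcripts were modelled as offsets, 7 members were called lower and 2 higher (27.6% and 29.7% of genes, 57.3% in either direction), with a median of -0.56 for the members and 0.00 for all genes. Offsets for length alone gave 7 lower and 3 higher (25.5% and 28.1% of genes). Offsets from the longest coding transcript of each gene gave 6 and 2 (28.2% and 28.5%). Offsets from the median length of the coding transcripts, with the GC content of the principal transcript, gave 8 and 1 (30.9% and 34.7%).

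**Figure D1:**
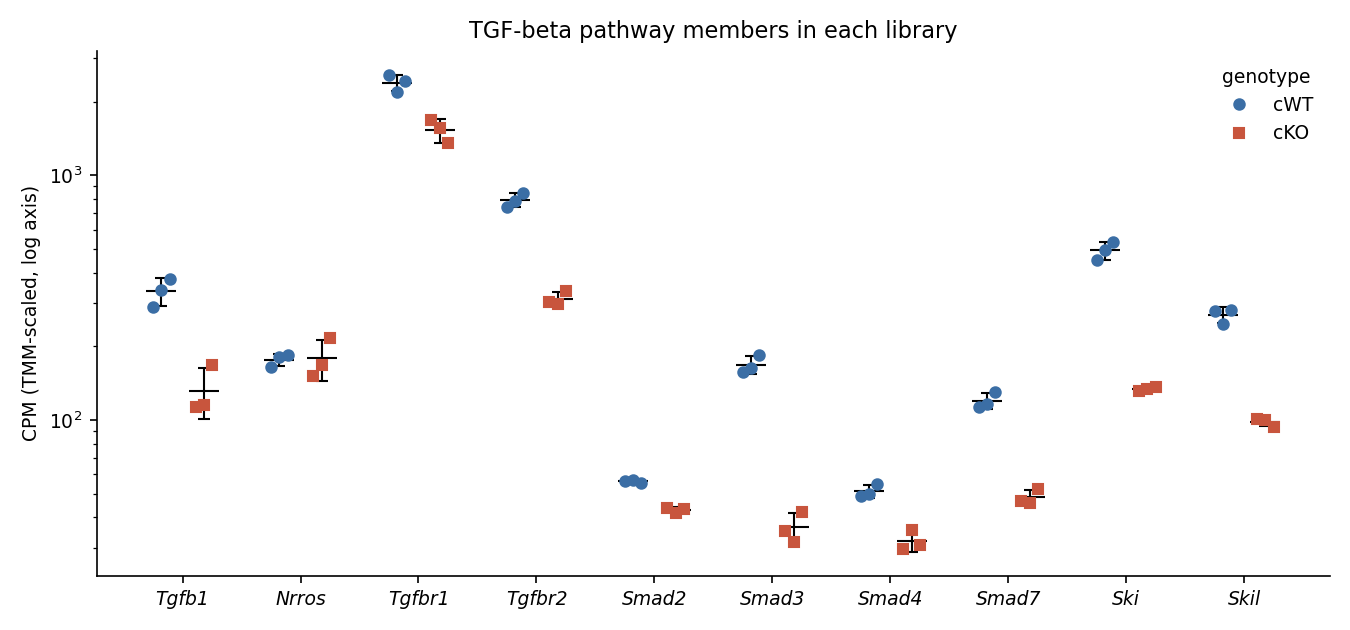
CPM of each member (log axis) in each of the 3 cWT (circles) and 3 cKO (squares) libraries, with the mean and SD in black. The genotypes are separate for every member except Nrros, whose cKO libraries at 152, 167 and 216 CPM enclose the cWT ones.

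Tgfb1 encodes the TGF-beta ligand that microglia both make and respond to (chromosome 7, 25687002 to 25705077, GRCm38). Its level was 289.6, 340.5 and 377 CPM in the cWT libraries and 113, 115 and 168 in the cKO libraries. Every cKO library was below every cWT library, with the third cKO library the highest of its group. The log2 fold change was -1.35 (SE 0.14, edgeR adjusted p = 8.072e-08). Genes of like transcript length were on balance higher in cKO, with a median of 0.28 in the length group of Tgfb1, and with the offsets Tgfb1 was nearly the same as without them, at -1.34 (adjusted p = 3.413e-11). It was called lower in each of 22 alternative analyses, with log2 fold changes from -1.74 to -1.15.

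Nrros encodes the leucine-rich repeat protein that tethers latent TGF-beta to the surface of microglia and other macrophages (chromosome 16, 32142785 to 32165594). It stood at 165, 181 and 184 CPM in cWT and at 152, 167 and 216 in cKO. The genotypes overlapped, and the spread of the cKO libraries was wider, with a mean of 178 ± 33.6 CPM (SD, n = 3) beside 176 ± 10.4 in cWT (n = 3). The log2 fold change was 0.02, with a 95% interval from -0.23 to 0.26 (edgeR adjusted p = 0.9025). This member moved with the scaling. With libraries scaled by total count alone, where the median of all genes shifted to -0.42 and 50.0% of genes were called lower against 24.7% higher, Nrros was called lower at -0.38 (adjusted p = 0.008409). With the length and GC offsets it was called higher at 0.43 (adjusted p = 0.0001451).

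Tgfbr1, the type I receptor kinase (chromosome 4, 47353222 to 47414926), was the most abundant member. It was at 2561, 2192 and 2416 CPM in cWT and at 1683, 1556 and 1348 CPM in cKO. The groups did not overlap, although the gap between the lowest cWT and the highest cKO library was smaller relative to the level than for most members. On the log2 scale the change was -0.64 (SE 0.11, adjusted p = 5.935e-05). With the length and GC offsets there was no call, at 0.01 with a 95% interval from -0.15 to 0.17 (adjusted p = 0.9114), and with offsets for length alone it was called higher at 0.33 (adjusted p = 0.01494). With the median length of its coding transcripts, 2345 bases, it was called lower at -0.69 (adjusted p = 5.73e-07).

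Tgfbr2, the type II receptor that binds the ligand (chromosome 9, 116087695 to 116175363), had 744, 784 and 848 CPM in cWT. In cKO it had 303, 299 and 337 CPM. The cKO libraries lay close together and far below the cWT libraries. Tgfbr2 thus changed by -1.34 in log2 (SE 0.10, adjusted p = 1.445e-09). With the offsets it was -0.90 (adjusted p = 5.269e-10) when the principal transcript of 3476 bases was taken for its length. Tgfbr2 also has an annotated coding transcript of 8092 bases, and with the longest transcript of every gene the value was 0.07 with no call (adjusted p = 0.5169). Which transcript the cells used is not given by a table of counts per gene.

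Smad3, a receptor-activated Smad that binds DNA (chromosome 9, 63646766 to 63757994), had the lowest cKO level relative to cWT of the 10 without offsets. Its level was 158, 164 and 184 CPM in cWT and 35.1, 31.9 and 42.3 CPM in cKO. Even the highest cKO library was far below the lowest cWT library. The log2 fold change was -2.21 (SE 0.11, adjusted p = 1.738e-11). It remained lower with the length and GC offsets, at -1.25 (adjusted p = 1.133e-10), where Tgfb1 was the lowest of the 10 at -1.34. Smad3 was called lower in each of the 22 alternatives, from -3.11 to -1.25.

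Smad2, the other receptor-activated Smad of this branch (chromosome 18, 76241090 to 76311748), had the smallest difference among the members called. It was at 56.4, 57.1 and 55.4 CPM in cWT and 43.8, 41.7 and 43.2 in cKO. Both groups were narrow and did not overlap. Smad2 fell by 0.39 log2 units (SE 0.10; adjusted p = 0.001261). Its principal transcript has 8089 bases, a length at which the median gene stood at -1.45, and with the offsets Smad2 was called higher at 0.81 (adjusted p = 4.93e-08). Its longest coding transcript has the same length, and offsets from the longest transcripts gave 0.77 (adjusted p = 9.633e-08). With the median length of its coding transcripts, 1305 bases, the sign turned again, to -0.94 (adjusted p = 2.743e-09). That median is taken over all annotated coding entries and need not be the length of a transcript in use. It was paired with the GC content of the principal transcript. The direction of Smad2 relative to genes of like length thus depends on the length taken.

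Smad4, the partner shared with the bone morphogenetic protein (BMP) branch (chromosome 18, 73634790 to 73703791), was at 48.9, 50.1 and 54.7 CPM in cWT. In cKO it was at 29.7, 35.5 and 30.9 CPM. The groups did not overlap. Smad4 thus stood at -0.68 on the log2 scale (SE 0.11, adjusted p = 2.11e-05), while the offsets gave -0.50 (adjusted p = 7.351e-05).

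Smad7, the inhibitory Smad that TGF-beta itself induces (chromosome 18, 75367365 to 75395935), had 113, 116 and 130.2 CPM in cWT and 46.9, 46 and 52.2 in cKO. The cKO libraries were within a few CPM of each other. Smad7 fell by 1.31 log2 units (SE 0.10; adjusted p = 1.721e-09), while the offsets gave -0.46 (adjusted p = 3.673e-05).

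Ski, the founding member of the repressor family (chromosome 4, 155154075 to 155222535), was at 449.7, 494 and 535 CPM in cWT and at 131, 133 and 136 CPM in cKO. The cKO libraries were the more tightly grouped, with an SD of 2.57 CPM (n = 3). Ski fell by 1.88 log2 units (SE 0.10; adjusted p = 1.944e-11). This is the member whose 3' UTR holds the seed match of miR-137-3p shown above, and a link between that match and its level was not tested. Skil, which encodes the related repressor SnoN (chromosome 3, 31095058 to 31122923), was at 278, 246 and 283 CPM in cWT and 101, 100.1 and 93.8 in cKO. Skil fell by 1.45 log2 units (SE 0.10, adjusted p = 2.351e-10). With the offsets Ski and Skil were still lower, at -0.70 (adjusted p = 4.8e-08) and -0.63 (adjusted p = 2.216e-07).

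**Figure D2:**
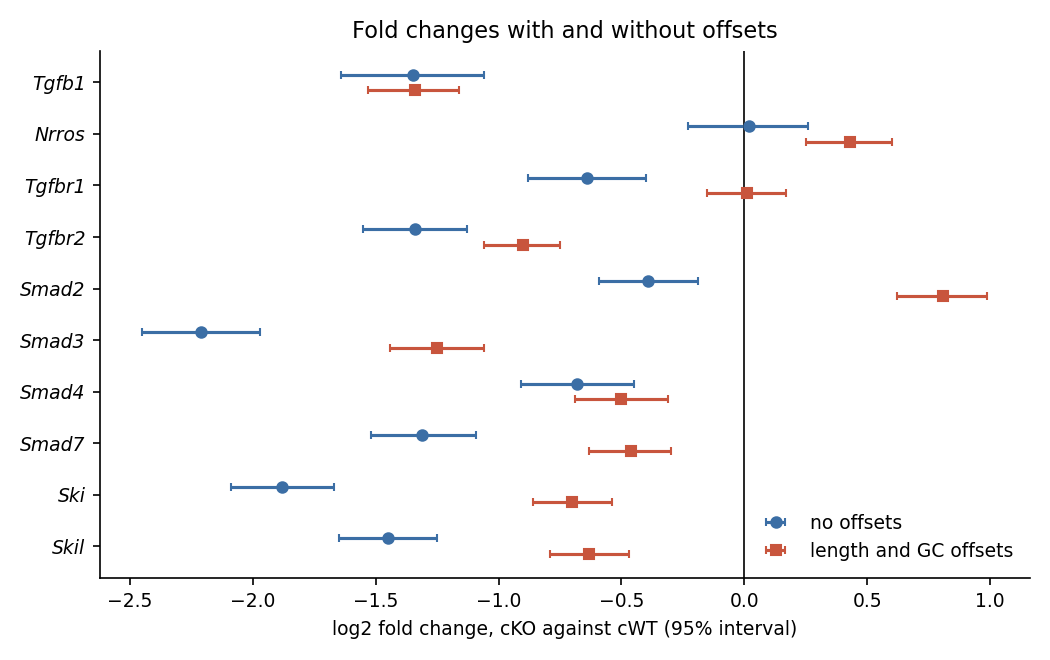
Log2 fold change of each member, cKO against cWT, with its 95% interval, without offsets (circles) and with length and GC offsets (squares). Tgfb1 is in the same place in both, Smad3 moves from -2.21 to -1.25, and Smad2 moves from -0.39 to 0.81.

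In the authors' deposited table Smad3 stood at -2.20 (SE 0.12), Ski at -1.88 (SE 0.09) and Nrros at 0.02 (SE 0.12). Across all genes with a known transcript length (12983), the Spearman correlation of log2 fold change with length was -0.72, a description over genes, which are not replicates. Genes were placed in 10 groups of equal number by length. Of the members, 6 lay below the interquartile range of the fold changes in their own length group (Tgfb1, Tgfbr2, Smad3, Smad4, Smad7 and Ski), 3 lay within it (Tgfbr1, Skil and Nrros) and 1 above it (Smad2). Tgfb1 was the farthest below, at -1.35 beside an interquartile range from -0.14 to 0.68. Skil at -1.45 equalled the median of its group. These positions rest on the principal annotated transcript of each gene.

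**Figure D3:**
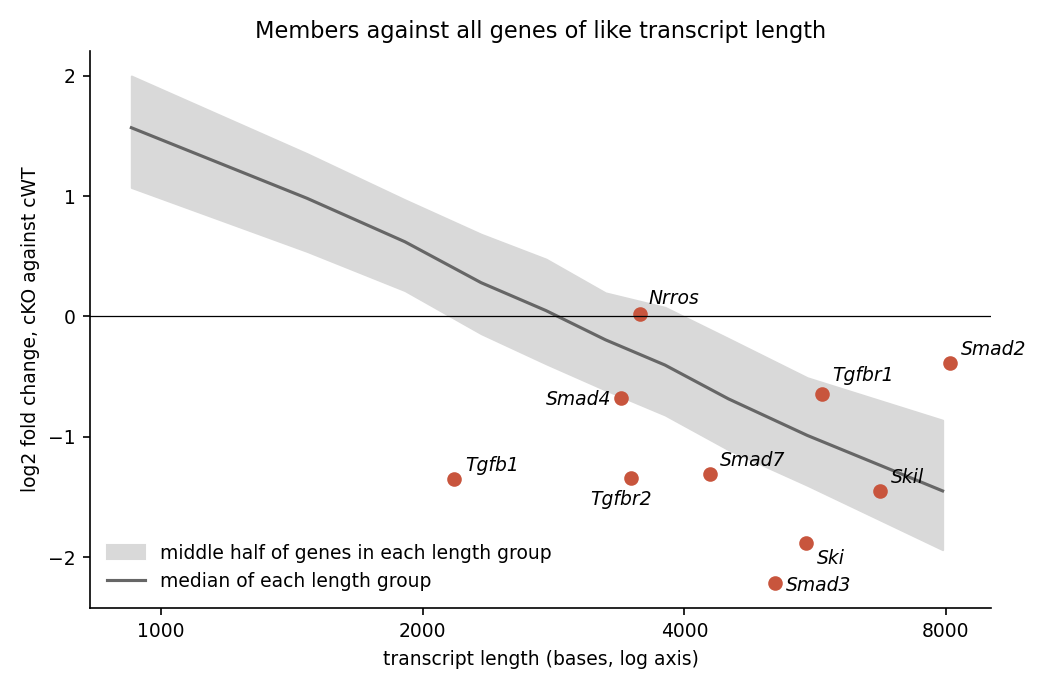
Log2 fold change of the 10 members (points) against transcript length in bases (log axis), with the median (line) and interquartile range (band) of all genes in 10 length groups, drawn at the median length of each group. Tgfb1, Tgfbr2, Smad3 and Ski lie well below the band, and Smad2 lies above it.

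Compared per length, as CPM per kilobase of the principal transcript, the cWT order ran from Tgfbr1 (415 ± 32.3, SD, n = 3) through Tgfbr2 (228 ± 15.2), Tgfb1 (154 ± 20.2), Ski (89.2 ± 7.7), Nrros (49.6 ± 2.93), Skil (40 ± 3), Smad3 (33.1 ± 2.69), Smad7 (28 ± 2.15) and Smad4 (15.1 ± 0.912) to Smad2 (6.96 ± 0.103). No 2 neighbours in that order overlapped over the 3 libraries. In cKO, Nrros (50.1 ± 9.43) took the place after Tgfb1 (60.6 ± 14.3), with which it overlapped, and Smad3 (7.16 ± 1.05) dropped below Smad7 (11.3 ± 0.789) and Smad4 (9.47 ± 0.908). Over the longer transcript of 8092 bases Tgfbr2 would be at 97.9 CPM per kilobase in cWT and 38.7 in cKO, which places it below Tgfb1 in both genotypes. Together the 10 members took 0.540% to 0.573% of all counts in cWT and 0.214% to 0.227% in cKO. Of that sum, Tgfbr1 made up 47.4% to 52.7% in cWT and 54.6% to 63.8% in cKO. A share of all counts follows scaling by total count, under which the median gene was itself lower in cKO, at -0.42 in log2.

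Ratios of counts between 2 members of the same library do not depend on the scaling between libraries, and 5 were compared. Smad3 had 2.8, 2.87 and 3.32 counts per count of Smad2 in the cWT libraries and 0.802, 0.764 and 0.979 in the cKO libraries. Per kilobase Smad3 was above Smad2 in both genotypes, with 6.26 to 8.31 CPM per kilobase beside 5.16 to 5.42 in cKO. The mean log2 ratio went from 1.58 ± 0.13 to -0.25 ± 0.19 (SD, n = 3 each), a difference of -1.82. Nrros went from 0.568, 0.531 and 0.488 counts per count of Tgfb1 in cWT to 1.34, 1.46 and 1.29 in cKO, a difference of 1.37 on the log2 scale. Counts of unequal transcripts do not give an order of levels: per kilobase Nrros had the lower mean in cKO as well, with 42.6 to 60.7 CPM per kilobase beside 52.1 to 77.1 for Tgfb1. The feedback inhibitor Smad7 went from 0.717, 0.707 and 0.708 counts per count of Smad3 to 1.34, 1.44 and 1.24, a difference of 0.91. Tgfbr1 went from 3.44, 2.8 and 2.85 counts per count of Tgfbr2 to 5.55, 5.2 and 4, and Ski from 1.62, 2.01 and 1.89 per count of Skil to 1.3, 1.33 and 1.45. None of the 5 ratios overlapped between genotypes. Each had p = 0.10 by a two-sided exact permutation test (0.10 adjusted over the 5), the smallest that 3 libraries against 3 allow, so none can pass a threshold of 0.05. A ratio shows unequal change of its members, and transcripts of unequal length, such as Smad2 and Smad3, are not freed from the trend with length.

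**Figure D4:**
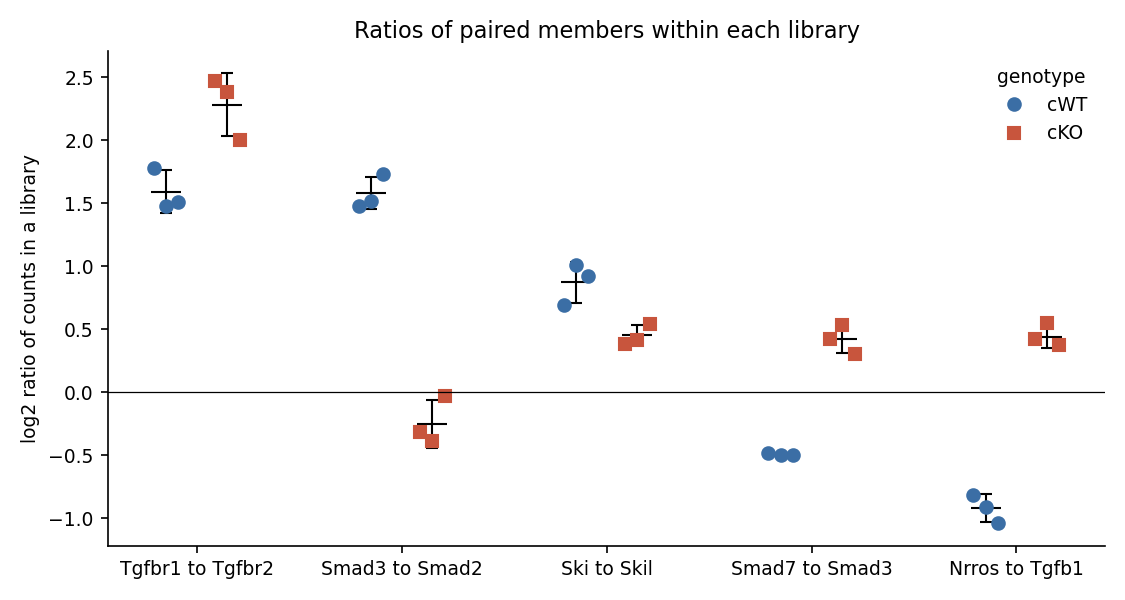
Log2 ratio of counts of 2 members within each library for 5 pairs, with circles for the 3 cWT and squares for the 3 cKO libraries and the mean and SD in black. The 2 genotypes are separate in each pair, with Smad3 to Smad2 lower in cKO and Nrros to Tgfb1 and Smad7 to Smad3 higher. The counts are not divided by transcript length, so the line at 0 does not mark equal levels.

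Promoter windows from 250 bases before to 50 after the annotated start were matched for 6 members in 7 windows (RefSeq, GRCm38.p6). They were searched on both strands for the paired Smad element GTCTAGAC, the Smad box CAGAC, the GC-rich Smad element GGCGCC, the PU.1 site GAGGAAGT and its core GAGGAA, which the longer letters contain, the SP1 site GGGGCGGGG, and AGCAATA, the match to the miR-137-3p seed. Neither GTCTAGAC, which is in 0.213% of 32851 promoter windows of that length, nor AGCAATA (2.16%) nor GAGGAAGT (3.2%) was found in any of the 7. GGGGCGGGG (11.4% of windows) was in that of Tgfb1, GGCGCC (11.9%) in those of Ski and Tgfbr1, CAGAC (49.6%) in those of Tgfbr2, Nrros and the downstream start of Tgfbr1, and GAGGAA (28.3%) in those of Tgfbr2 and the downstream start of Tgfbr1. The windows of Ski and Tgfbr2, members with called falls of different size, are printed to show how unlike they are, with every match in capitals. The window of Ski (chr4:155222486-155222785, minus strand) has a GC content of 85.3% and a match of GGCGCC at -220 from the start. That of Tgfbr2 (chr9:116175314-116175613, minus strand) has 59% GC, CAGAC at -160 and GAGGAA at -57, where the median promoter has 52.7% GC.

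Ski: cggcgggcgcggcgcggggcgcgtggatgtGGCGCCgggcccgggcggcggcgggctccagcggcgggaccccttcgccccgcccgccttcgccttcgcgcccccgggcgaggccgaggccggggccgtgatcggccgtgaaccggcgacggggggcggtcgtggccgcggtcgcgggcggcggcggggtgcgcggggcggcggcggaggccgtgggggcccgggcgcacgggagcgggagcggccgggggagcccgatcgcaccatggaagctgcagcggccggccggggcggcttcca
Tgfbr2: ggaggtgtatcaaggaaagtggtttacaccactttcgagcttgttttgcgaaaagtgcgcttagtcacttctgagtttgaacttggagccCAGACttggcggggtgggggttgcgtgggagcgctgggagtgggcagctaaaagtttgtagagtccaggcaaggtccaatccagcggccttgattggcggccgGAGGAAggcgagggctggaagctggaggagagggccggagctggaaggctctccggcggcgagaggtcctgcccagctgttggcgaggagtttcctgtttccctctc

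Other genes of the pathway were grouped by role in 9 lists. The counts in each list stand beside 36.5% of all genes called lower and 35.6% higher, or 27.6% and 29.7% with length and GC offsets. Median lengths were 4993 bases for ligand activation, 5074 for receptor partners and 4044 for the BMP and activin branch, against 3001 for all genes. Those for Smad turnover and the TAK1 arm were 4538 and 5669 bases. Of genes with 4145 to 4925 bases 66.2% were called lower, and with 4925 to 6456 bases 76.0%. Other TGF-beta ligand genes and genes that store or release the ligand were mostly lower, with 10 of 12 tested called lower and 0 higher. Their median log2 fold change was -1.42. Ltbp4, a latent TGF-beta binding protein of the matrix, fell from 342 ± 25.7 to 57.7 ± 5.86 CPM (n = 3 each), a log2 fold change of -2.57 (edgeR adjusted p = 2.851e-12). Thbs1, which encodes the ligand activator thrombospondin 1, fell by 1.93 on the log2 scale (adjusted p = 2.103e-09). Both were also lower with the offsets, at -1.24 and -0.90, when 8 of 12 were called lower and 1 higher. Without offsets, 0 of these genes were higher at an unadjusted p under 0.05 by edgeR, and 0 at an adjusted p under 0.05 with DESeq2 or limma-voom.

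Partners of the receptors were divided, with 7 of 11 lower and 4 higher (median -0.92). Dab2, an endocytic adaptor that binds the receptors, fell by 1.86 (adjusted p = 1.944e-11) and Tgfbrap1, a receptor-associated protein, fell by 1.64 (adjusted p = 2.1e-10). Bambi, a decoy receptor that lacks a kinase domain, rose from 4.13 ± 0.29 to 9.67 ± 0.0423 CPM (n = 3 each), a log2 fold change of 1.23 (adjusted p = 1.26e-05). Strap, which binds Smad7 and the receptors, rose by 0.72 (adjusted p = 2.779e-06). With the offsets 4 of 11 were lower and 4 higher, and Bambi stood at 1.83.

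In the BMP and activin branch 10 of 16 genes were lower and 1 was higher (median -0.89). Bmpr2, a type II receptor of BMPs, fell by 1.46 (adjusted p = 7.348e-10), Smad5, a Smad of the BMP branch, fell by 1.30 (adjusted p = 3.308e-09), and the ligand Bmp7 rose by 1.02 from a low level of 3.05 ± 0.34 CPM (n = 3, adjusted p = 0.001018). The offsets moved Bmpr2 to -0.20, Smad5 to -0.34 and Bmp7 to 1.57, all still called. Of 15 genes that control the turnover of Smads and their repressors, 12 were lower and 1 higher (median -0.78). Rnf111, the ubiquitin ligase Arkadia that marks Ski, Skil and Smad7 for degradation, fell by 1.24 (adjusted p = 6.831e-09), the deubiquitinase gene Usp9x fell by 1.49 (adjusted p = 1.67e-09), and the ubiquitin ligase gene Stub1 rose by 0.71 (adjusted p = 9.498e-06). They stood at -0.61, -0.34 and 0.33 with the offsets. In the arm of the kinase TAK1, 4 of 5 genes were lower, among them those of its binding partners Tab2 and Tab3, at -1.13 and -1.42, and both at -0.62 with the offsets. With the offsets the turnover genes had 7 of 15 lower and 5 higher, the BMP branch 7 of 16 lower and 1 higher, and the TAK1 arm 2 of 5 lower and 1 higher.

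Of 15 nuclear partners of the Smads, 12 were lower and 2 higher (median -1.71). Ep300, which encodes a histone acetyltransferase, went from 156 ± 10.4 to 29.2 ± 4.1 CPM (SD, n = 3 each) and so fell by 2.42 log2 units (edgeR adjusted p = 7.235e-12). The deacetylase genes Hdac1 and Hdac3 rose by 0.61 and 0.72. The transcripts of this list are long, with a median of 5861 bases against 3001 for all genes. With the offsets 12 of 15 were lower, 11 of them also lower without offsets, and 0 higher (1 at an unadjusted p under 0.05 by edgeR), at a median of -0.66, with Ep300 at -0.71, while Hdac1 and Hdac3 were not called, at 0.09 and 0.19.

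Of 15 genes that Smads induce, 6 were higher and 6 lower (median -0.14), shares close to the 35.6% and 36.5% of all genes. The median length of this list is 2604 bases. Of genes with 2553 to 3001 bases, 30.9% were called higher and 24.1% lower. With the offsets 3 of 14 were higher and 8 lower (median -0.34), beside 29.7% and 27.6% of all genes. The inhibitors of differentiation Id1 and Id3, which respond mainly to the BMP branch, rose by 1.66 (adjusted p = 1.759e-10) and 1.19 (adjusted p = 2.348e-08), and stood at 0.27 and 0.14 with the offsets. Pdgfb, a growth factor gene, fell from 314 ± 19.5 to 127 ± 25.5 CPM (n = 3 each), a log2 fold change of -1.30 (adjusted p = 2.044e-08). Pmepa1, a feedback inhibitor of Smads 2 and 3, fell by 1.02 (adjusted p = 8.727e-08). With the offsets Pdgfb was at -0.87 and called, and Pmepa1 at -0.19 and not called (adjusted p = 0.05552).

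Of 20 microglial genes known to depend on TGF-beta, 11 were lower and 4 higher (median -0.33). The median length of this list is 2538 bases. Of genes with 2113 to 2553 bases, 14.6% were called lower and 45.1% higher. Olfml3, a secreted glycoprotein of microglia, went from 1671 ± 147 to 323 ± 75.4 CPM, and Sall1, a transcription factor that keeps microglial identity, from 837 ± 76.5 to 187 ± 18.6 CPM (SD, n = 3 each). Their log2 fold changes were -2.37 and -2.16, and -1.33 and -1.22 with the offsets. C1qa, a complement gene, rose by 1.53, and Tmem119 by 1.35, the latter at the locus that drives the Cre. With the offsets C1qa was at 0.32 and Tmem119 at 1.30. Of 14 genes known to be higher in microglia that lack TGF-beta signalling, 6 were higher and 6 lower (median -0.16). The shares over all genes were 35.6% and 36.5%, but this list is short, with a median of 1409 bases. Of genes with 1224 to 1701 bases, 75.3% were called higher and 3.54% lower. Cd52, a surface glycoprotein gene, rose by 1.76 and Lyz2, which encodes lysozyme, by 1.06, while Cybb, a subunit gene of the NADPH oxidase, fell by 1.54 and Cd74, the invariant chain of MHC class II, fell by 1.18. With the offsets 8 of the 14 were lower and 0 higher (0 also at an unadjusted p under 0.05 by edgeR), with Cd52 at -0.15 and Lyz2 at -0.05 (neither called), Cybb at -1.09 and Cd74 at -2.08. Of the 20 TGF-beta dependent genes 12 were then lower and 2 higher.

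**Figure D5:**
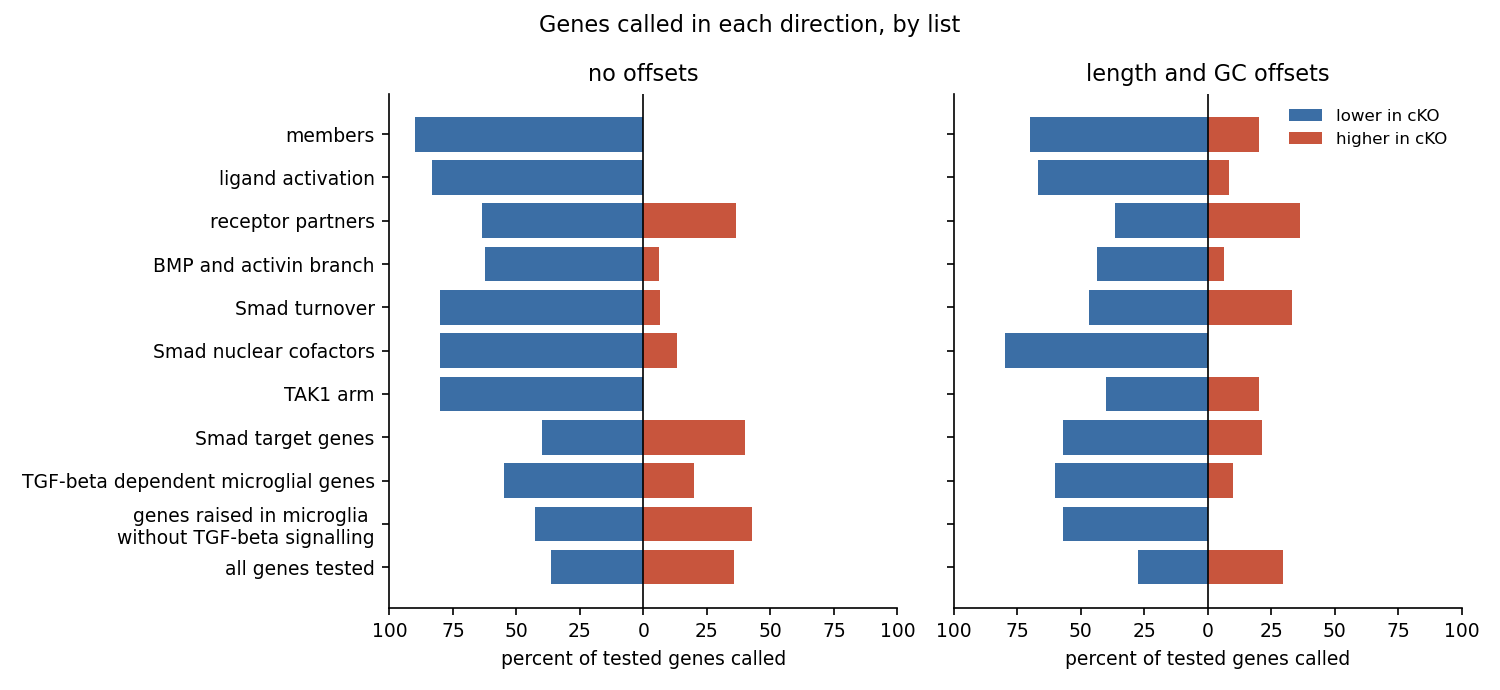
Percent of tested genes called higher (right) or lower (left) in cKO for the members, each pathway list and all genes tested, without offsets and with length and GC offsets. The members and the lists of ligand activation, Smad turnover, nuclear cofactors and the TAK1 arm have most of their bars on the lower side without offsets, and the nuclear cofactors have 12 of 15 genes lower in each panel, 11 of them in both.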

How the data were processed

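RNA sequencing of brain microglia gave 3 cKO and 3 cWT libraries, grouped by their titles. The authors deposited estimated counts for each gene symbol, without scaling. The submitters' processing notes list STAR 2.7.9a, RSEM, DESeq2, GRCm38 and mm10 but not their roles. For strand setting and annotation, nothing is given in the sources used here. The deposited comparison holds DESeq2 columns per the file headers: a base mean (signal), log2 fold changes and their standard errors, a Wald score, and p-values with adjusted p-values.

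Estimated counts (5.5% to 5.85% of values not whole) were rounded and tested with edgeR 4.0.16 in R 4.3.3 (quasi-likelihood, two-sided, TMM scaling, filterByExpr with a minimum count of 10, Benjamini-Hochberg over 13490 genes). CPM are on the TMM scale, and SEs were derived from the test statistic. Offsets per library came from a smooth (mgcv 1.9.3) of log2 CPM deviations on transcript length, or length and GC content, of the GENCODE principal transcript (GRCm38). No 2 libraries of 1 genotype were alike within counting noise (chi-square per degree of freedom 3.82 to 18.6). The edgeR, limma-voom and DESeq2 fits without offsets, and edgeR with offsets for length alone, were run on simulated counts. The length and GC offsets and the replicate block were not. Named pathway genes were, per list and direction, the 2 called genes of smallest p whose average log2 CPM reached 2 and whose genotypes did not overlap; 1 such gene is not reported here. Ccn2 was found under its older symbol Ctgf, and Foxh1 was not matched. The members and lists were chosen with earlier results of these data known. DESeq2 1.42.0, limma-voom (limma 3.58.1), other scalings, filters, thinning, leaving out each library and a replicate block were run as alternatives.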

Additional observations from a re-analysis of the deposited data

How the results depend on the processing

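Tgfb1, Smad3, Smad4, Smad7, Ski and Skil were called lower in all 22 alternatives to the edgeR analysis. The number of members called lower was 9 when any 1 library was left out, where 4597 to 4875 of all genes were called lower. Results that turned did so with the length offsets or the scaling; the cause was not tested. The number of members called higher was 0 without offsets and 3 with offsets for length alone (28.1% of genes). It was 2 with length and GC offsets (29.7%), and 2 with the replicate block added to them, where 3874 of all genes were called higher. In alternatives chosen after seeing the data, it was 2 with the longest coding transcript (28.5% of genes) and 1 with the median length of coding transcripts (34.7%). Tgfbr1 turned from -0.64 to 0.33 with length offsets and to 0.01 with length and GC offsets, with or without the block. Tgfbr2 turned from -1.34 to 0.07 with the longest transcript and 0.08 with the median length. Smad2 turned from -0.39 to 0.93 with length offsets, 0.81 with length and GC offsets, 0.80 with the block added and 0.77 with the longest transcript. Nrros turned from 0.02 to -0.38 with total counts alone. That scaling called 3331 genes higher and 6742 lower, against 4803 and 4926 with TMM. A replicate block left 9 members lower and 0 higher, where 5028 of all genes were called lower and 4883 higher. Whether the numbers in the titles mark a pairing is not settled. Deviations of same-numbered libraries correlated at 0.19, 0.04 and 0.14, and those of libraries with different numbers at -0.21 to 0.08. With the offsets, length and log2 fold change still correlated at -0.0862 (Spearman, over genes).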
